A study of Bos taurus with 20 samples.

Results

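miR-21 is made from a single hairpin precursor whose arms are cut out as a pair of mature strands, miR-21-5p from the left arm and miR-21-3p from the right. Both strands are named in the table of small RNA counts from bull spermatozoa, as bta-miR-21-5p and bta-miR-21-3p, and they are 2 of its 1029 mature miRNAs. They were chosen by name and not by a rule on their values, though earlier results of these data were known.

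As background, the 2 strands of a miRNA hairpin leave the enzyme Dicer as a duplex. The guide strand is kept by an Argonaute protein and directs it to target mRNAs through its seed, the short stretch near its 5′ end, while the passenger strand is mostly discarded. For miR-21 the 5p strand is the usual guide. It is one of the most studied miRNAs of somatic tissue, rises in inflammation, fibrosis and tumours, and represses the translation inhibitor PDCD4 and the signalling inhibitors of the Sprouty family. In the RefSeq annotation of the ARS-UCD2.0 assembly the bovine gene MIR21 lies between VMP1, which encodes a membrane protein of autophagy, and TUBD1, which encodes delta tubulin. MIR21 is also listed there as a synonym of VMP1. Only 1 gene of that annotation has the symbol MIR21. No coordinates are given, since the reads were mapped to another assembly, and the mature sequences were not used here.

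The libraries came from frozen-thawed semen of 20 mature Holstein-Friesian AI bulls, 10 of high fertility (HF) and 10 of low fertility (LF), and each bull gave 1 library. The groups were set by an adjusted fertility score, which estimates how often an insemination led to a pregnancy once herd, parity of the cow and similar influences were adjusted for. No bull carried a treatment or an engineered allele. Straws of several ejaculates were pooled for each bull, and somatic cells were lysed before the RNA was extracted, so a value averages several ejaculates of 1 animal.

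The values are normalized counts, that is CPM corrected by the TMM factor of the library, and whole reads could be recovered from them. The libraries held between 103203 and 3097585 reads on miRNAs, with a median of 1092882.5 in HF and 1085747 in LF bulls. The smallest level that can be told from 0 was set at 3 reads, which is 1.19 on the scale of normalized counts where the depth was greatest and 27.6 where it was least, both in HF bulls. All intervals and floors on reads cover the counting error of reads only. They treat reads as independent, and PCR copies are not independent molecules, so the intervals can be too narrow. Markers named for male germ cells (miR-34b, miR-34c and the miR-449 members) were all present, with a summed normalized count between 32093 and 77203 in HF and between 25829 and 54584 in LF bulls. The epithelial markers, among them the miR-200 family and miR-375, summed to between 17050 and 24349 in HF and between 17693 and 27773 in LF bulls. Leukocyte markers summed to between 1640 and 6347 in HF and between 2131 and 7663 in LF bulls, of which nearly all was bta-miR-146a. Erythroid, muscle and endothelial markers summed to at most 100.4, 1584 and 194 in HF bulls. In LF bulls these sums were at most 82.7, 1978 and 264. The muscle markers were miR-143, miR-145, miR-1 and miR-133a. None of the 27 markers was at 0 in every library.

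bta-miR-21-5p was among the most abundant miRNAs of these spermatozoa, and its levels in HF and LF bulls differed by less than the spread between bulls. Its normalized count over the 20 bulls was 54410 ± 10445 (SD, n = 20), which placed it at rank 3 of 1029 by mean. In HF bulls the lowest value was 31314, the median 55347 and the highest 70742. In LF bulls the lowest was 42820, the median 52856 and the highest 70726. The ranges of HF and LF bulls overlapped almost fully at the top, and only HF replicate 17 lay below the LF range. The values rest on 3407 reads in HF replicate 17 and on between 15547 and 140044 reads in the other libraries. In pooled semen, a change in the share of cells that carry a miRNA and a change in its amount per cell cannot be told apart.

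**Figure D1:**
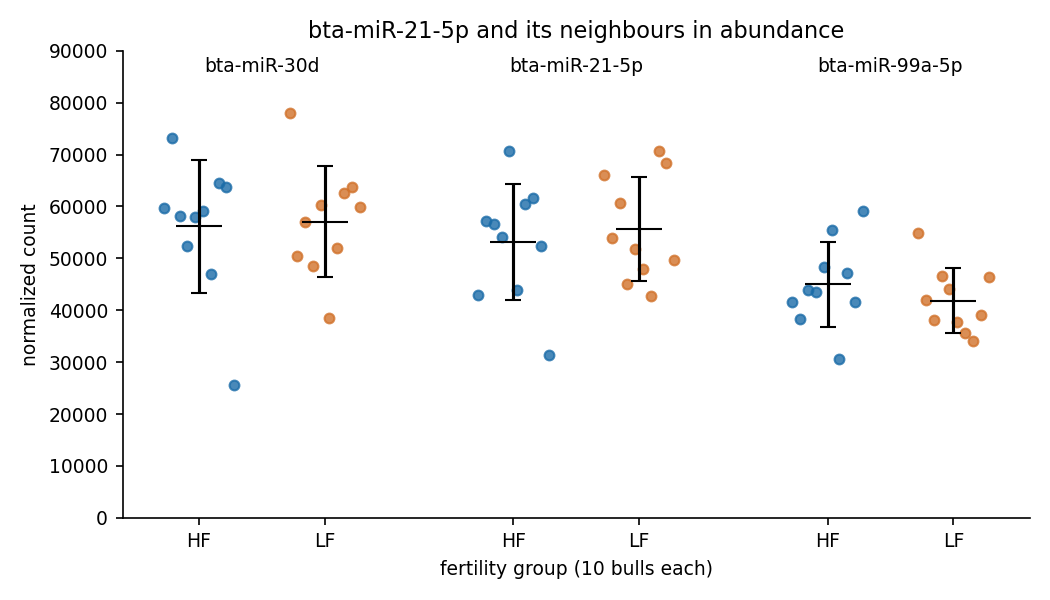
Normalized count (vertical axis) of bta-miR-30d, bta-miR-21-5p and bta-miR-99a-5p in HF and LF bulls. Each point is 1 bull, and the bar and whiskers give the mean and SD of 10 bulls. The HF and LF points overlap for each miRNA, and the lowest bta-miR-21-5p value, 31314, is that of HF replicate 17.

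As a share of all counted miRNA, bta-miR-21-5p made up 5.45% ± 1.06 (SD, n = 20). The lowest share was 3.30% of the reads in HF replicate 17 (95% Wilson interval 3.19 to 3.41). The highest was 7.25% in LF replicate 18 (95% Wilson interval 7.20 to 7.31). The median share was 5.55% in both HF and LF bulls. These intervals cover counting error only, and variation from library preparation was not measured.

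The question of the study was whether sperm miRNAs differ between bulls of high and low fertility. The mean of bta-miR-21-5p was 53119 ± 11196 in the HF group and 55701 ± 10064 in the LF group (SD, n = 10 each). The log2 fold change, HF over LF, was -0.080 (standard error 0.14, adjusted p = 0.96 from limma). Its 95% interval ran from -0.36 to 0.20, which is a fold between 0.777 and 1.15. The 1.5-fold change that the study used as a threshold lies outside this interval in both directions. The LF median was exceeded by 6 of 10 HF bulls, and the HF median by 4 of 10 LF bulls. Of the 435 miRNAs that passed the filter on low counts, limma called 0 at an adjusted p under 0.05 (0.0%), and 15 (3.45%) had an unadjusted p under 0.05. The count tests called 0 as well, with between 16 and 18 miRNAs under 0.05 before adjustment. 21.1% of the 435 had a smaller fold change than bta-miR-21-5p in absolute value.

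The sign of the difference rested on HF replicate 17, the shallowest library and the one with the lowest bta-miR-21-5p level. Without it the log2 fold change was 0.00091 (adjusted p = 0.999 from limma). With any other bull left out it stayed below 0, down to -0.13 without HF replicate 10.

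**Figure D2:**
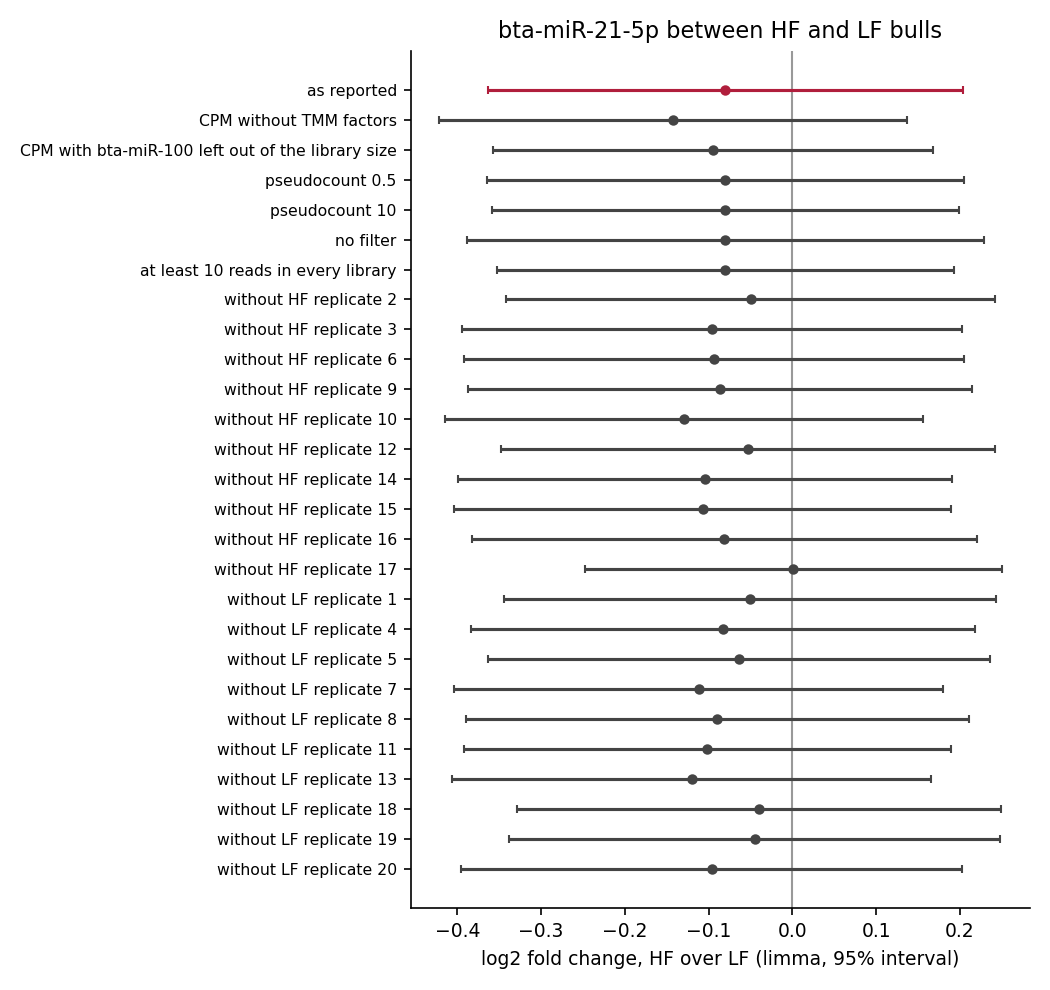
Log2 fold change of bta-miR-21-5p, HF over LF (horizontal axis), from limma as reported and under each alternative listed on the vertical axis. Points are estimates and whiskers 95% intervals. Every interval includes 0, and the estimate without HF replicate 17 sits at 0.00091.

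The spread of bta-miR-21-5p between bulls was intermediate among the abundant miRNAs. Its coefficient of variation was 19.2% over the 20 bulls, 21.1% in HF and 18.1% in LF bulls. Counting error alone gives between 0.267% and 1.71% per library. Among the 20 most abundant miRNAs its coefficient of variation was the eighth lowest, in a range from 13.5% for bta-miR-27b to 48.2% for bta-miR-204. The highest bull had 2.26 times the level of the lowest. HF bulls were not shown to vary more than LF bulls. The mean absolute deviation from the group median was 0.23 on the log2 scale in HF bulls against 0.21 in the LF group (permutation test, two-sided, p = 0.83). This difference was below 0 without HF replicate 17, at -0.048 (permutation test, p = 0.48).

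In the order of abundance bta-miR-21-5p came after bta-miR-100 and bta-miR-30d and before bta-miR-99a-5p. It held rank 2 in 7 libraries, rank 3 in 9 and rank 4 in 2. In HF replicate 12 it was at rank 5, and in HF replicate 17 it was at rank 7. Reads were compared as counted, with no correction for length, since mature miRNAs are of nearly the same length. How well each sequence is captured in a library was not measured.

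bta-miR-30d, a member of the widely expressed miR-30 family, was not separated from bta-miR-21-5p. Its mean was 56614 ± 11464 (SD, n = 20). The within-library log2 difference, bta-miR-21-5p minus bta-miR-30d, was -0.050 ± 0.26 (SD, n = 20), with bta-miR-21-5p the higher of the pair in 9 of 20 libraries. The mean difference was not shown to differ from 0 (sign-flip permutation test, two-sided, p = 0.40, adjusted over 2 comparisons p = 0.40).

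bta-miR-99a-5p, a relative of miR-100, was lower than bta-miR-21-5p. Its mean was 43435 ± 7279 (SD, n = 20). The within-library log2 difference, bta-miR-21-5p minus bta-miR-99a-5p, was 0.32 ± 0.44 (SD, n = 20), and bta-miR-21-5p was the higher in 17 of 20 libraries. The mean difference was above 0 (sign-flip permutation test, two-sided, p = 0.0052, adjusted over 2 comparisons p = 0.0105), though smaller than the SD over bulls, and single bulls ran from -0.92 to 1.05. bta-miR-99a-5p was chosen as the next below by mean in these same libraries, and the p-values here do not allow for that choice. The difference was 0.40 in the LF bulls (exact sign-flip permutation test, p = 0.0039) and 0.23 in the HF bulls (exact sign-flip permutation test, p = 0.19). Whether these 2 differ was not tested. The order was turned in 3 libraries, most of all in HF replicate 17, where bta-miR-99a-5p was at its highest level of all bulls, 59136.

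bta-miR-21-3p, the passenger strand, was close to absent from the table. It had 0 reads in 17 of the 20 libraries. HF replicate 6 held 3 reads, a normalized count of 4.60. HF replicate 14 held 1 read, a normalized count of 0.761, and LF replicate 7 held 1 read, a normalized count of 1.00. So the 20 libraries together held 5 reads of the 3p strand, 3 of them from a single bull. The deepest libraries, HF replicates 2 and 10, had 0, and a relation of these reads to depth was not tested. A count of 0 allows a share of up to 9.68e-05% at the greatest depth and up to 0.00291% at the least, taken as 3 reads of the total. By mean normalized count bta-miR-21-3p was at place 573 of the 731 miRNAs with any read.

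**Figure D3:**
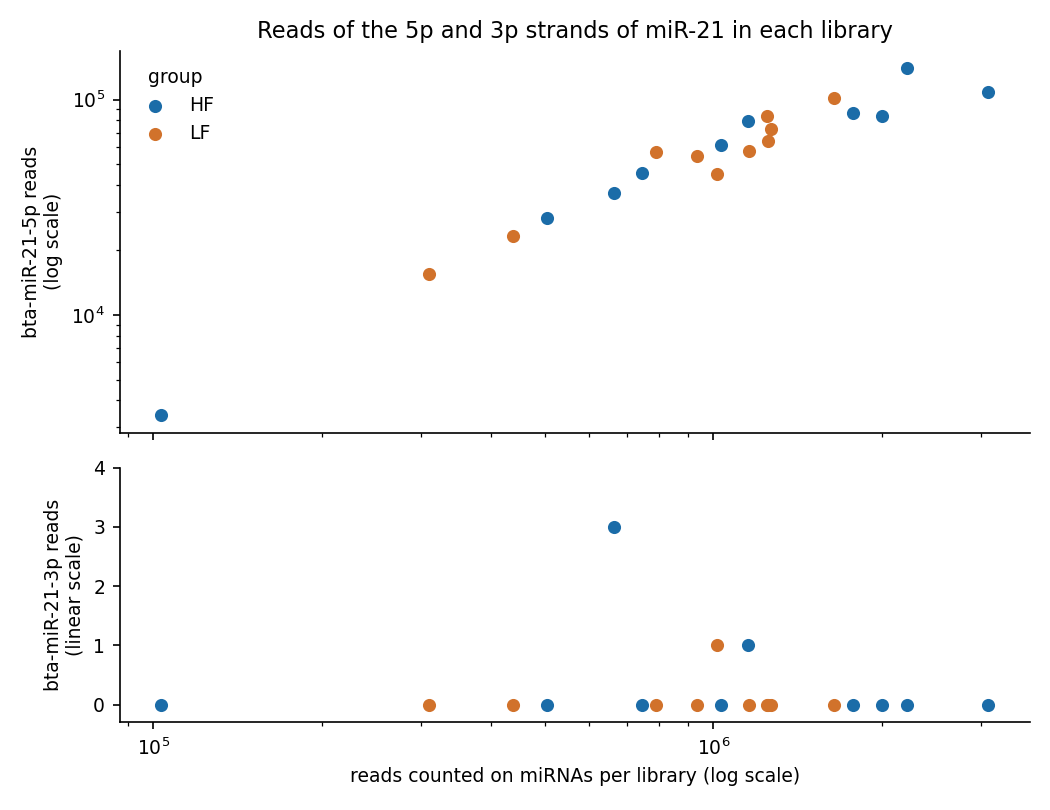
Reads of bta-miR-21-5p (upper panel, log scale) and bta-miR-21-3p (lower panel, linear scale) against the reads counted on miRNAs in each library (log scale). Each point is 1 bull, coloured by fertility group. Reads of the 5p strand follow the depth of the library from 3407 to 140044, while the 3p strand has 0 reads in 17 libraries and at most 3.

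The strand ratio was therefore extreme. Over all libraries 1250226 reads of the 5p strand stood against 5 of the 3p strand, a ratio of 250045 (95% exact interval 107147 to 770088). Put as a share, the 3p strand made up 4.00 ppm (reads in 1000000 reads of both strands) of the hairpin (95% exact interval 1.30 to 9.33). Without HF replicate 6 this was 1.65 ppm (95% exact interval 0.200 to 5.95).

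In single libraries the ratio is a number only where the 3p strand was counted. It was 12304 in HF replicate 6 (95% exact interval 4210 to 59664), 79539 in HF replicate 14 (14275 to 3141670) and 44874 in LF replicate 7 (8054 to 1772470). In the 17 libraries with 0 reads it is a lower bound, computed against a floor of 3 reads per library. There the bound on the ratio of reads ran from 1136 in HF replicate 17 to 46681 in HF replicate 10, with a median of 20520. How well each strand is captured in a library was not measured, so these are ratios of reads. The depth of the library sets these bounds, and they give no order among the bulls.

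HF and LF bulls were not shown to differ in bta-miR-21-3p. It was counted in 2 of 10 HF and 1 of 10 LF libraries (two-sided Fisher's exact test, p = 1.0), with 4 reads in all against 1. With only 3 libraries that hold a read, no split between the groups could bring this test under 0.05. Pooled over each group, the 3p strand made up 5.94 ppm of the hairpin reads in HF (95% exact interval 1.62 to 15.2) and 1.73 in LF bulls (95% exact interval 0.0439 to 9.66). Without HF replicate 6 the HF value was 1.57. The mean normalized count of each group was under the floor of 3 reads, so no fold change is given. The strand did not pass the filter on low counts. Fitted without the filter, its adjusted p was 0.91 (limma), where 0 of 731 miRNAs were called at an adjusted p under 0.05 (0.0%) and 21 (2.87%) had an unadjusted p under 0.05.

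The log2 strand ratio, with 1 added to the normalized count of each strand, was 15.33 ± 0.80 in the HF group and 15.64 ± 0.48 in the LF group (SD, n = 10 each). The difference of -0.31 was not shown to differ from 0 (permutation test, two-sided, p = 0.34). Without HF replicate 6, which holds 3 reads of the 3p strand, it was -0.084 (permutation test, p = 0.69). In the 17 libraries at 0 this ratio is the level of the 5p strand alone. The lowest ratios were 13.3 in HF replicate 6 and 14.46 in LF replicate 7, both of which hold reads of the 3p strand. Over the 67 hairpins with both arms named and any read, limma called 0 (0.0%) for a different arm ratio between HF and LF, and 3 (4.48%) had an unadjusted p under 0.05.

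Levels of the 2 strands were not shown to move together across the bulls, with only 3 libraries that hold a read of the 3p strand. Pearson's r of the log2 levels was 0.032 (permutation p = 0.89) and Spearman's rho -0.017 (permutation p = 0.95) over 20 bulls, both with an adjusted p of at least 0.89 over the 5 relations computed. Without the 2 bulls farthest from the median of bta-miR-21-5p, r was 0.0087. Within HF bulls r was 0.20 (permutation p = 0.57) and within LF bulls -0.39 (permutation p = 0.40), where LF replicate 7 is the only library with a read of the 3p strand, so that the LF value rests on 1 bull.

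The other 4 relations compared bta-miR-21-5p with the depth of the library and with summed markers of cell types. The leukocyte sum was nearly all bta-miR-146a, which is also on the inflammatory list below, and the germ cell sum was mostly bta-miR-34c. For depth, r was 0.47 (permutation p = 0.037, adjusted p = 0.19) and rho 0.24 (permutation p = 0.31, adjusted p = 0.74). Without HF replicate 17 and LF replicate 11, the shallowest libraries, r was -0.0094, so the relation rests on those 2. With the germ cell markers r was -0.25 (permutation p = 0.29) and rho -0.25 (permutation p = 0.29). With the leukocyte markers r was -0.078 (permutation p = 0.74) and rho -0.036 (permutation p = 0.88). With the epithelial markers r was 0.33 (permutation p = 0.15) and rho 0.18 (permutation p = 0.44). The adjusted p of these 3 was at least 0.385 for r and at least 0.74 for rho. Without the 2 bulls farthest on each marker sum, r was -0.28, -0.11 and 0.25 in the same order.

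Within the groups r with each marker sum had opposite signs, and whether HF and LF differ in them was not tested. In HF bulls r with the germ cell markers was -0.43 (permutation p = 0.22) and in LF bulls 0.043 (permutation p = 0.91). With the leukocyte markers r was -0.44 in HF (permutation p = 0.21) and 0.25 in LF bulls (permutation p = 0.48). With the epithelial markers r was 0.71 in HF (permutation p = 0.027) and -0.014 in LF bulls (permutation p = 0.97). The HF value had an adjusted p of 0.27 over the 10 relations computed within groups, and a rho of 0.35 (permutation p = 0.33). Without HF replicates 6 and 17, the farthest on the epithelial markers, it was 0.31. With the leukocyte markers the HF value without HF replicates 14 and 15, the farthest on that sum, was -0.88, which was not tested. With depth r was 0.49 in each group (permutation p = 0.15 in both), and close to 0 without the 2 bulls of each group farthest in depth, at -0.0074 in HF and 0.0087 in LF bulls. Over the 10 the adjusted p was at least 0.27 for r and at least 0.665 for rho. The tests within groups were added after the data were seen.

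To see whether so lopsided a ratio is usual in these libraries, the other hairpins with both arms named in the table were set beside miR-21. There are 83 such hairpins, 67 of them with any read. In 13 the dominant arm had at least 10000 reads over all libraries, the 5p arm in 9 and the 3p arm in 4. Their minor arm had a median of 35421 ppm of the hairpin reads, and for bta-miR-9, a neuronal miRNA that came closest to balance, it had 233769. miR-21, at 4.00, had the most reads of a dominant arm among the 13 and the smallest share of a minor arm, apart from bta-miR-2284h. The latter had 0 reads of its 3p arm beside 24142 of its 5p arm, and the upper limit of its 95% exact interval, 153 ppm, lies above the value of miR-21. For the other 11 the lower limit of the pooled interval was above the upper limit of miR-21. These intervals cover counting error only and leave out the variation between bulls. Of the 5 reads of bta-miR-21-3p, 3 came from HF replicate 6. Hairpins of which only 1 arm is named could not be compared.

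**Figure D4:**
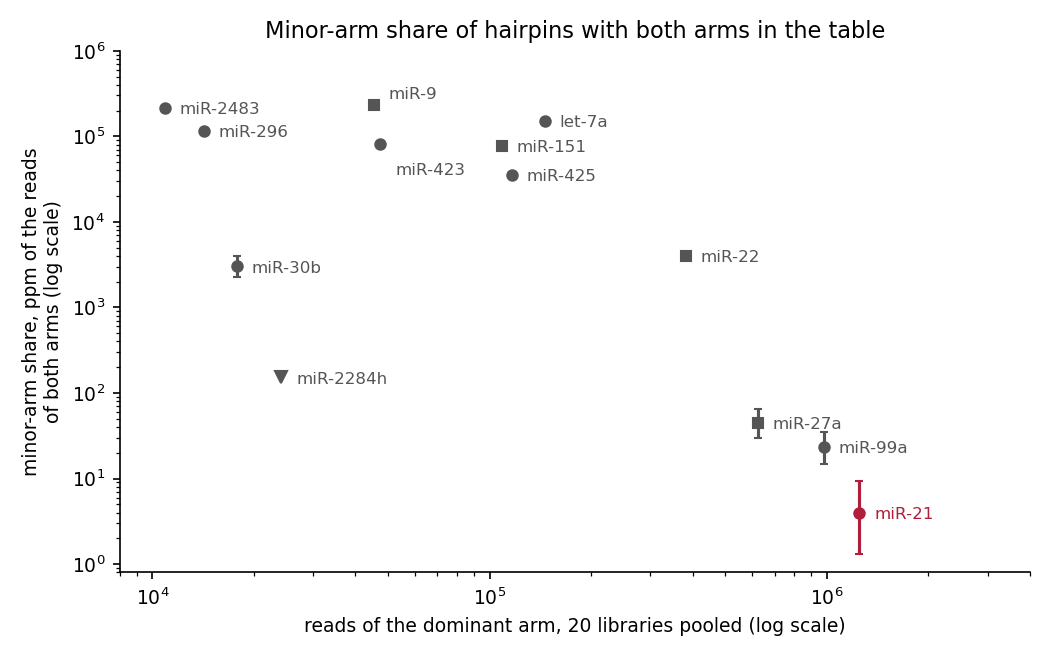
Share of the minor arm in ppm of the reads of both arms (vertical axis, log scale) against reads of the dominant arm (horizontal axis, log scale), pooled over 20 libraries, for the 13 hairpins with at least 10000 reads of the dominant arm. Circles are hairpins with a dominant 5p arm, squares those with a dominant 3p arm, whiskers 95% exact intervals, and the triangle the upper limit for a hairpin with 0 minor-arm reads. miR-21 (red) sits lowest at 4.00, next to miR-99a at 23.4 and miR-27a at 44.7.

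The hairpins nearest to miR-21 were those of miR-99a and miR-27a, which are also the next in reads. The minor arm of miR-99a had 23 reads in 10 libraries, 23.4 ppm (95% exact interval 14.9 to 35.2). That of miR-27a, which is dominated by the 3p arm, had 28 reads in 13 libraries, 44.7 ppm (95% exact interval 29.7 to 64.6). miR-22, with 383404 reads of its dominant 3p arm, had 3970 ppm. So the minor arm made up at most 44.7 ppm in the 3 most read hairpins, against 3970 in the next.

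The minor-arm share of miR-21 was compared with that of other hairpins over the 20 libraries. A two-sided sign-flip permutation test of the within-library difference was used, with adjustment over 5 comparisons. miR-22, miR-30b and miR-2419 were taken from the hairpins with both arms past the filter on low counts, which bta-miR-21-3p failed. That choice favours a higher minor-arm share than in miR-21, so their p-values do not decide whether miR-21 is unusually low. The mean share per library was 5.81 ± 18.6 ppm (SD, n = 20) for miR-21. For miR-22 it was 4080 ± 1398 (SD, n = 20), and miR-21 was lower in 20 of 20 libraries (permutation p = 2e-05, the smallest that these resamples can give, adjusted p = 0.0001). For miR-30b it was 3669 ± 4551 (SD, n = 20), with miR-21 lower in 16 and tied in 4 libraries (permutation p = 4e-05, adjusted p = 0.0001). For miR-2419 it was 10914 ± 9858 (SD, n = 20), with miR-21 lower in 13 and higher in 2 (permutation p = 0.00026, adjusted p = 0.00043). For miR-27a it was 46.8 ± 57.0 (SD, n = 20), with miR-21 lower in 13 and higher in 2 (permutation p = 0.0058, adjusted p = 0.0072).

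The difference from miR-99a did not pass. Its share was 24.4 ± 42.2 ppm (SD, n = 20), and miR-21 was lower in 10, tied in 8 and higher in 2 libraries (permutation p = 0.091, adjusted p = 0.091). Without HF replicate 6, the library with 3 reads of bta-miR-21-3p, the difference was -23.8 ppm with an unadjusted permutation p of 0.0069. miR-99a and miR-27a were added to the comparison after their values were seen, and their p-values do not allow for that choice.

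Some miRNAs followed bta-miR-21-5p closely from bull to bull. Likeness was measured as Spearman's rho of the log2 levels over the 20 bulls, for each of the 434 other miRNAs that passed the filter, and is given as a description. All values of a bull share 1 library and 1 scaling factor. The median rho was 0.052, and 247 of the 434 were above 0. The 5 most alike were bta-let-7a-3p (rho = 0.90), bta-miR-2336 (0.89), bta-miR-6524 (0.85), bta-miR-27a-3p (0.63) and bta-miR-7861 (0.60). The first 3 stand apart from the fourth. For bta-miR-100, which takes the largest share of the reads, rho was 0.038.

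bta-let-7a-3p is itself a minor strand, from the hairpins of let-7a, an miRNA conserved across animals. Its lowest normalized count was 761, its median 1104 and its highest 1644. In the same bulls the rho of bta-let-7a-3p with its partner strand bta-let-7a-5p was 0.26. let-7a has several hairpins, and the reads of bta-let-7a-3p were whole numbers in 15 of 20 libraries, so its level is reported as uncertain. bta-miR-2336 had a lowest normalized count of 78.9, a median of 135 and a highest of 192, on between 10 and 367 reads. For bta-miR-6524 these were 119, 180 and 258 (normalized counts), on between 13 and 460 reads.

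**Figure D5:**
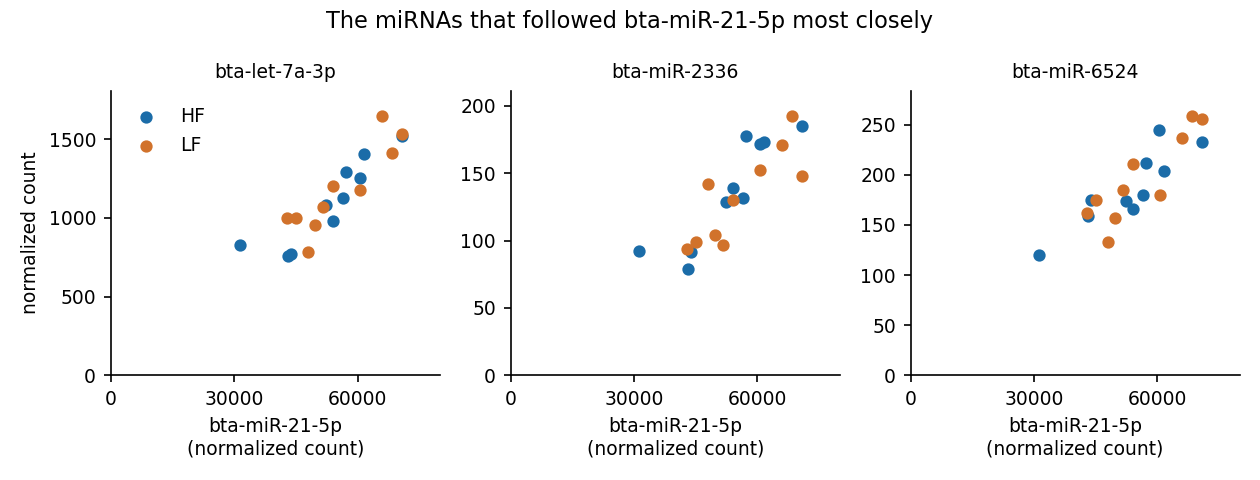
Normalized count of bta-let-7a-3p, bta-miR-2336 and bta-miR-6524 (vertical axes) against that of bta-miR-21-5p (horizontal axes). Each point is 1 bull, coloured by fertility group. In each panel the points rise together with bta-miR-21-5p, with a rho of 0.90, 0.89 and 0.85, and HF and LF bulls lie on the same band.

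The ratio to bta-miR-21-5p varied little for these 3, and what underlies this was not tested. bta-miR-21-5p had 278 times the reads of bta-miR-6524 in the median bull, in a range from 247.0 to 362. The SD of this log2 ratio was 0.15 over the 20 bulls, and counting error alone gives 0.14. For bta-let-7a-3p the median ratio was 48.2, the SD of the log2 ratio 0.17 and the counting error 0.057. For bta-miR-2336 the median ratio was 402, the SD of the log2 ratio 0.22 and the counting error 0.16. Among the 157 miRNAs with at least 10 reads in every library, these were the 3 smallest SDs, where the median was 0.53 and the fourth, bta-miR-32, had 0.26. The 3 were picked for a high rho to bta-miR-21-5p over these same bulls. Small SDs, and a high rho within groups or with one another, follow in part from that choice. With bta-miR-100 left out of the total, rho to bta-miR-21-5p was 0.89 for bta-let-7a-3p, 0.80 for bta-miR-2336 and 0.86 for bta-miR-6524. The 3 also followed one another, with a rho between 0.72 and 0.89. Within HF bulls rho to bta-miR-21-5p was between 0.89 and 0.94 and within LF bulls between 0.81 and 0.85. Their log2 fold changes, HF over LF, were -0.099 for bta-let-7a-3p, 0.025 for bta-miR-2336 and -0.061 for bta-miR-6524, with an adjusted p of at least 0.96 (limma). No likeness is given for bta-miR-21-3p, which is tied at 0 in 17 libraries.

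miR-21 is also one of the miRNAs that inflammatory signals induce in many cell types. In a list of 7 such miRNAs, with bta-miR-21-5p among them, all passed the filter and 0 were called between HF and LF in either direction at an adjusted p under 0.05 (limma, 0.0% of all miRNAs). By sign, 1 of the 7 stood above and 6 stood below the LF level in HF bulls, and their median log2 fold change was -0.30, beside 0.0051 over all 435, of which 217 stood below the LF level. Beside 3.45% of all miRNAs, 2 of the 7 had an unadjusted p under 0.05. These were bta-miR-155 and bta-miR-146a, both regulators of innate immune signalling, with log2 fold changes of -0.998 and -0.52. The values of bta-miR-146b, bta-miR-223 and bta-miR-222 were -0.30, -0.51 and -0.30, and that of bta-miR-132 was 0.25. The value of bta-miR-223 is uncertain, since its level was near or under the floor of 3 reads. Its mean normalized count was 1.59 in HF and 2.46 in LF bulls, with reads in 16 of 20 libraries. By comparison the -0.080 of bta-miR-21-5p was the smallest of the 7 in absolute value. bta-miR-155, bta-miR-146a and bta-miR-223 are also among the 6 leukocyte markers, so the list is not free of them. Of those 6 leukocyte markers 2 stood above and 4 below the LF level, with a median log2 fold change of -0.37, and 2 had an unadjusted p under 0.05. Among them bta-miR-142-3p was also near the floor, with a mean of 2.71 in HF and 2.48 in LF bulls and reads in 14 of 20 libraries. Of the 7 epithelial markers 1 stood above and 6 below, with a median of -0.39, and 2 had an unadjusted p under 0.05. The 1 above was bta-miR-375, the most abundant of the 7. The sum of the 7 had a median normalized count of 21696 in HF and 22283 in LF bulls. The 5 male germ cell markers all stood above the LF level, with a median of 0.20 and none under 0.05 before adjustment. By the sign of the log2 fold change, the markers of the 3 other lists that passed the filter also all stood above it. That direction depends on the scale, since for some the mean normalized count was lower in HF than in LF bulls. It was 420 against 459 for bta-miR-143, 6.84 against 7.79 for bta-miR-133a and 73.2 against 83.3 for bta-miR-126-3p. These were 2 erythroid (median 0.36), 3 muscle (median 0.36) and 2 endothelial markers (median 0.23). The 3 muscle markers were bta-miR-143, bta-miR-1 and bta-miR-133a. Among them 1, the erythroid bta-miR-486, had an unadjusted p under 0.05. 0 of these markers were called at an adjusted p under 0.05 (limma). The part of any of these cell types in the values of the inflammatory list was not tested.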

How the data were processed

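The authors clipped adapters with Cutadapt, kept short reads, removed other short RNA species, aligned to ARS-UCD1.2 with Bowtie, and counted with the miRDeep2 quantifier on miRBase's bovine mature miRNAs. The deposited values are a signal per miRNA and library, CPM divided by a TMM factor. The value of 1 read in each library was taken from its commonest low values, and 95.0% of values above 0 were whole reads within a tolerance of 0.02. Recovered reads were rounded.

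The filter removed miRNAs whose normalized count was under 1 in 10 or more bulls and left 435. HF and LF were compared with limma's trended fit (version 3.58.1, R 4.3.3) on log2(normalized count + 1), with Benjamini-Hochberg adjustment. bta-miR-21-3p did not pass and was fitted among all 731 miRNAs with a read. edgeR (version 4.0.16, quasi-likelihood and likelihood ratio tests) and DESeq2 (version 1.42.0) on recovered reads were alternatives. Fits were tested on simulated data. Permutation tests used 100000 resamples (scipy 1.17.1), and exact ones all of them.

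Strands and lists were chosen with earlier results of these data known. Named are the 2 strands, their neighbours in abundance (for bta-miR-21-5p), the 5 most alike miRNAs, the hairpins closest in arm ratio or with the largest one among those with both arms past the filter, and the lists. Seed relatives were to be named but sequences were not used here. bta-miR-9, bta-miR-2284h, bta-miR-27b, bta-miR-204, bta-miR-32, bta-miR-100 and the hairpins of miR-99a and miR-27a were chosen after their values were seen. The AI center of a bull was not used here.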

Additional observations from a re-analysis of the deposited data

Results flagged for a closer look

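In 4 of 8 groups of 10 bulls tested, the highest or lowest bull lay farther from the next than Dixon's 95% critical value allows. Chance flags about 1 in 20 groups of values that vary continuously, a share that does not apply here: the 3p strand is at 0 in 8 of 10 HF and 9 of 10 LF bulls, so that 1 read alone sets the gap in LF. bta-miR-21-3p had a normalized count of 4.60 in HF replicate 6, from 3 reads, and the gap to the next HF bull was 0.835 of the range. It had a normalized count of 1.00 in LF replicate 7, from 1 read, while the other 9 LF bulls were at 0, a gap of 1.0. The log2 strand ratio was 13.3 in HF replicate 6, with a gap of 0.581, and 14.46 in LF replicate 7, with a gap of 0.562. The last 2 are the same reads seen through the ratio, and in each group nearly all the other bulls have 0 reads. The 4 groups not listed, those of the bta-miR-21-5p level and share, had gaps between 0.0854 and 0.297.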

How the results depend on the processing

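No result named here changed its side of the threshold except where stated. The log2 fold change of bta-miR-21-5p lay between -0.14 and -0.050 under the other tests, scalings, pseudocounts and filters, and between -0.13 and 0.00091 with each bull left out, the last without HF replicate 17. The fitted log2 difference of bta-miR-21-3p, no fold since both groups lie under the floor, was 0.23 with a pseudocount of 1, 0.051 with 10 and between 1.22 and 1.44 in the count tests. With each bull left out it lay between -0.0096, without HF replicate 6, and 0.33. The median fold change over all miRNAs (log2) was 0.0051 as reported and -0.053 with CPM without TMM factors, and 0 miRNAs were called by limma under each scaling, pseudocount, filter and bull left out, or by the edgeR and DESeq2 tests, each run once on all bulls. Without single bulls, the strand ratio difference lay between -0.44 and -0.084. The spread differences lay between -0.048 and 0.047 for the 5p strand, between -0.0096 and 0.33 for the 3p strand and between -0.011 and 0.30 for the ratio, below 0 without HF replicate 17 (5p) or HF replicate 6 (3p and ratio). With single bulls left out, the difference from bta-miR-30d lay between -0.072 and -0.028 and that from bta-miR-99a-5p between 0.28 and 0.38, and in HF bulls alone the latter was 0.23 and no longer past the threshold. The difference in minor-arm share between miR-21 and miR-99a lay between -23.8 and -11.1 ppm with each bull left out, and passed the threshold only without HF replicate 6, an alternative chosen after seeing the data. The correlation of the 2 strands was 0.20 in HF and -0.39 in LF bulls alone, the latter resting on the single read in LF replicate 7. The median log2 strand ratio of 15.67 was 16.67 with a pseudocount of 0.5, 12.38 with 10 and 16.81 from reads with 0.5 added, because most libraries have 0 reads of the 3p strand. The share of bta-miR-21-5p was 9.05% with bta-miR-100 left out of the total. No paired analysis was possible because each bull was in HF or LF only, and no matching of bulls between the groups is given. With 5 reads of the 3p strand in all, a difference between groups was not detectable at this depth.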
